A study of Mus musculus with 12 samples.

Results

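Normal islet maturation was described from the wild-type (Wt) libraries of a bulk RNA-seq series, by setting Wt islets of 12-week-old (12w) mice against Wt islets of 2-week-old (2w) mice. The members were chosen by label alone: the 3 libraries labelled Wt_12w (numbered 1, 2 and 4) and the 3 labelled Wt_2w (numbered 1, 2 and 3), 6 of the 12 libraries of the series. The Wt mice were male, on a C57BL/6 background, and littermates of Tg7 mice, which overexpress miR-7a2 in β-cells. The other 6 libraries, 3 of Tg7 islets at each age, entered the model as a common source for the estimate of spread, and their age change was used only to see where the Wt change differed from it. Each library was made from islets pooled from at least 3 animals, after Liberase digestion of the pancreas and a Histopaque gradient. The islets were not sorted, so each library holds every cell type of the islet and any tissue carried along with it, and p values measure the spread between pools, not between mice. Of 37991 genes in the table, 15961 passed the filter on low counts and were tested.

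Islets are clusters of endocrine cells in which insulin-secreting β-cells are the most numerous, with glucagon (α), somatostatin (δ) and pancreatic polypeptide cells around them, within a dense capillary bed. Around birth and through suckling, rodent β-cells divide often and release insulin at low glucose, and they acquire adult glucose responsiveness around weaning while their division slows. A shift away from fetal RNA-binding proteins, towards a larger secretory pathway and new settings of the circadian clock, is known to go with this period.

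Counts assigned to genes ranged from 12803066 to 17515758 in the 2w libraries and from 11610697 to 17227642 in the 12w libraries. The scaling factors (TMM, a correction for the make-up of each library) were 0.968 to 1.07 at 2w and 0.684 to 0.871 at 12w. Levels below are CPM, counts scaled to library size and this factor, and they are compared between ages for one gene, not between genes. The tissue label fitted its defining genes: insulin, glucagon, somatostatin and pancreatic polypeptide transcripts were high in every library, and the 16 acinar markers together reached at most 27.3 CPM. Library 4 of the 12w group stood apart, with 254 genes more than 2-fold above and 133 more than 2-fold below both other 12w libraries of 9808 genes compared, and it lay far from the other 5 on the second principal component (23.6% of variance, after 48.2% on the first, which separated the ages). In 12w library 1 these counts were 46 and 42. There a group of transcripts took 5.50% of all counts, against 0.515% to 0.846% in the other 5 libraries. The group includes Lars2 and mmu-mir-689-2, which lie on different chromosomes. Library 1 of the 2w group was above both others by more than 2-fold for 33 of 9794 genes and below for 2. Mitochondrially encoded genes took 3.74% to 3.92% of counts at 2w and 4.12% to 5.02% at 12w.

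With age 2524 genes changed, which is 15.8% of the genes tested, by edgeR's quasi-likelihood test at a Benjamini-Hochberg adjusted p under 0.05. Of these, 1261 were higher at 12w (7.9% of those tested) and 1263 were lower (7.91%). The downregulated genes moved further, as 697 of them had an estimate of at least 2-fold and 258 of at least 4-fold, against 381 and 87 of the upregulated genes. In 2436 of the 2524 genes the 3 libraries of one age lay wholly on one side of the 3 of the other, while 31.4% of all genes tested showed such a separation. The median log2 fold change over all genes was 0.04. Scaling by library size alone shifted this median to -0.35 and called 325 genes higher and 3795 lower, so the even split between directions belongs to the TMM scaling and directions below are relative to it. Without 12w library 4 the calls numbered 4020, and without 2w library 2 or 2w library 3 they numbered 1336 and 1349. Of the main calls, 2251 were also called in the same direction without 12w library 4, but 1321 without 2w library 2 and 1344 without 2w library 3. In a fit of the 6 Wt libraries alone 1283 genes were called, and 1254 of the main calls were among them in the same direction.

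The insulin genes, whose products are the secreted hormone of β-cells, were higher at 12w. Ins2 (ENSMUSG00000000215, mm9 chromosome 7, 149864561 to 149885415) stood at 113920, 69474 and 65989 CPM in the 2w libraries and at 311816, 250477 and 126762 CPM in 12w libraries 1, 2 and 4. Ins1 (ENSMUSG00000035804, chromosome 19, 52338813 to 52339946) stood at 45353, 31169 and 28442 CPM at 2w and at 127145, 87559 and 43794 CPM at 12w. The 12w libraries were spread more widely than the 2w libraries for both genes, and 12w library 4 lay close to the highest 2w library, below it for Ins1 and above it for Ins2. The log2 fold change was 1.47 ± 0.36 (SE from the fit of all 12 libraries, n = 3 and 3 compared, adjusted p = 0.0140) for Ins2 and 1.30 ± 0.38 (adjusted p = 0.0325) for Ins1. Ins1 lost its call without 2w library 2 or 3 or 12w library 1 or 2, with adjusted p of 0.119, 0.132, 0.123 and 0.0605, and Ins2 lost it without 2w library 2 or 3 (0.0694 and 0.0725). In a fit of the 6 Wt libraries alone neither passed, at 0.101 for Ins1 and 0.0822 for Ins2. The coding sequences of the pair are nearly the same, and the sources used here do not say how reads that match both were counted. As a share of raw counts, both genes together took 15.4%, 10.7% and 10.1% at 2w and 30.0%, 27.0% and 14.8% at 12w, a difference of 11.9 percentage points that the exact two-sided permutation test over libraries did not separate (p = 0.2, with 0.1 the smallest that 3 against 3 can give).

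Of the 51 genes on the list of β-cell maturity and glucose sensing, all of which passed the filter, 11 were higher and 5 lower at 12w, and the median log2 fold change was 0.08, close to the 0.04 of all genes. The hormones led: Iapp, which encodes amylin, the peptide released together with insulin, had 18087, 13681 and 13965 CPM at 2w and 38974, 25634 and 23667 CPM at 12w. The ages did not overlap, and the log2 fold change was 0.95 ± 0.21 (adjusted p = 0.00848). Ucn3, the urocortin peptide used as a marker of adult β-cells, had 382, 170 and 180 CPM at 2w and 518, 380 and 267 CPM at 12w. Here 2w library 1 lay among the 12w libraries, and the change of 0.67 ± 0.28 did not pass (adjusted p = 0.124), while without that library it was 1.14 (adjusted p = 0.0066). It also passed without 12w library 4 (0.87, adjusted p = 0.0325).

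Glucose handling and the granule gave most of the other increases. G6pc2, the islet glucose-6-phosphatase, went from 1477, 951 and 1121 CPM to 2610, 2393 and 2712 CPM, a 2.17-fold rise (log2 1.12 ± 0.19, adjusted p = 0.00165). Syt4, a synaptotagmin of secretory granules known to rise as β-cells mature, went from 152, 98.0 and 134 CPM to 416, 291 and 369 CPM, 2.80-fold (adjusted p = 1.16e-04). For both genes every 12w library was well above every 2w library. Trpm5, a calcium-activated cation channel, rose 2.71-fold (adjusted p = 0.00342), and Cox6a2, a tissue-restricted subunit of cytochrome c oxidase, rose 6.63-fold from 27.1, 4.42 and 5.32 CPM to 87.7, 112 and 45.9 CPM (adjusted p = 0.00463). Cpe, the carboxypeptidase that trims prohormones, rose 1.64-fold (adjusted p = 0.00731) and Tmem27, a β-cell membrane protein, 1.43-fold (adjusted p = 0.0378). The glucose transporter Slc2a2, at 173 to 181 CPM against 173 to 363 CPM, overlapped between ages and did not pass (adjusted p = 0.255).

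Among 16 β-cell transcription factors 1 was higher and 3 were lower. The increase was Esrrg, an oestrogen-related receptor tied to the oxidative metabolism of adult β-cells, which had 6.05, 3.90 and 5.27 CPM at 2w and 9.71, 8.49 and 20.001 CPM at 12w (2.52-fold, adjusted p = 0.0115). Rfx6, needed for endocrine development and for insulin secretion, was 1.79-fold lower (198 to 140 CPM against 110 to 71.0 CPM, adjusted p = 0.00439), Isl1 1.42-fold lower (adjusted p = 0.0281) and Mlxipl, which encodes the glucose-responsive factor ChREBP, 1.67-fold lower (adjusted p = 0.0297). Isl1 and Mlxipl lost their calls without any one 2w library (adjusted p = 0.0606 to 0.105 and 0.0677 to 0.0803). In a fit of the Wt libraries alone neither passed (0.0964 and 0.0801). Mafa, an activator of the insulin gene, did not pass: it had 254, 199 and 189 CPM at 2w and 45.4, 170 and 170 CPM at 12w (log2 -0.73 ± 0.33, adjusted p = 0.154). Pdx1 had 189, 214 and 185 CPM at 2w and 115, 86.0 and 178 CPM at 12w. Its libraries did not overlap, and the log2 fold change of -0.63 ± 0.21 was just outside the threshold (adjusted p = 0.0526), with a call in 8 of the alternatives, among them the fit without 12w library 4 (-0.98, adjusted p = 5.88e-04). Nkx6-1 was at 391 to 487 CPM and 461 to 579 CPM (log2 0.27 ± 0.12, adjusted p = 0.154), and its estimate turned to -0.13 under library size alone.

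**Figure D1:**
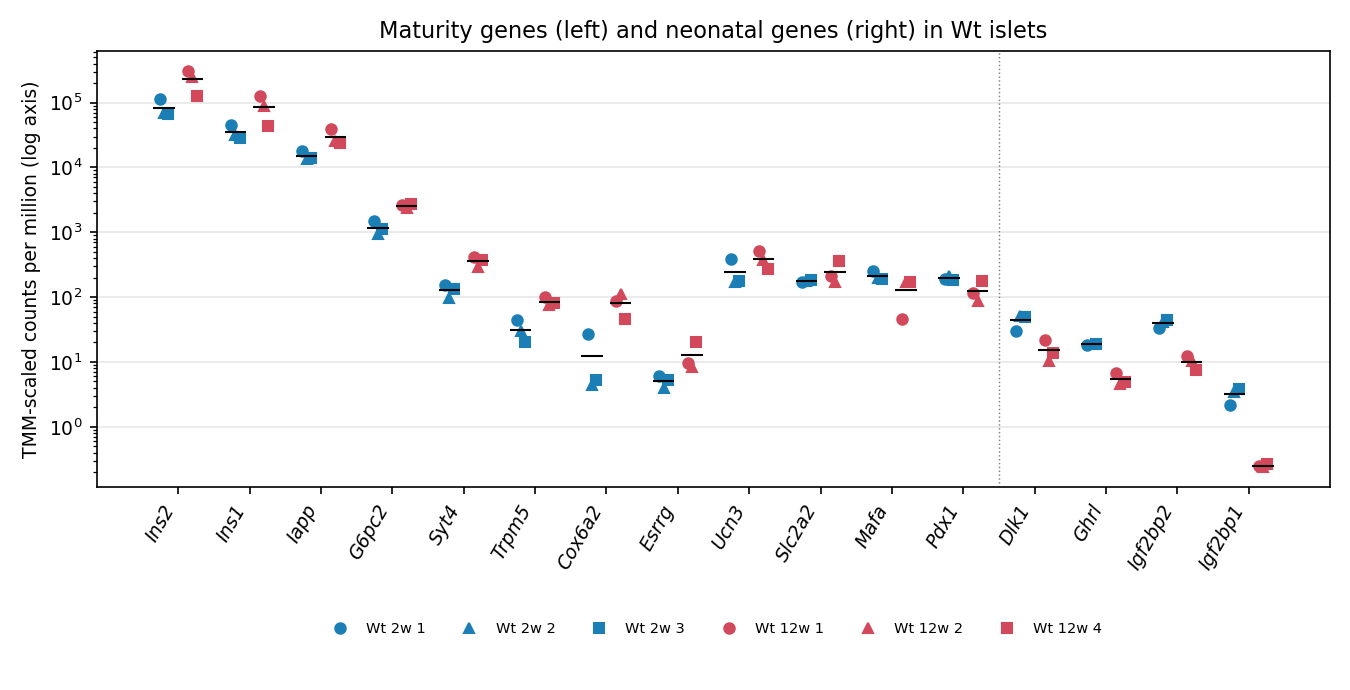
CPM (log axis) of genes of β-cell maturity and of neonatal genes in the 3 Wt libraries at 2w and the 3 at 12w, with 1 point per library and a horizontal bar at the group mean. G6pc2 and Syt4 separate the ages with every 12w library above every 2w library, whereas Ucn3 overlaps because 2w library 1 reaches 382 CPM.

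Of the 39 genes for exocytosis and ion channels, 2 were higher and 4 lower, while 7.9% of all genes were called higher and 7.91% lower. Stx3, a syntaxin, rose 1.44-fold (adjusted p = 0.00992) beside Syt4, while Stx1a, the plasma membrane syntaxin of fast insulin release, was 1.52-fold lower (adjusted p = 0.0409), a call lost without any one library other than 12w library 2 (adjusted p = 0.0758 to 0.133). Cacna1c, the pore of the main L-type calcium channel of β-cells, had 72.0, 75.4 and 86.4 CPM at 2w and 37.2, 39.9 and 55.3 CPM at 12w, and so every 2w library lay above every 12w library (1.76-fold lower, adjusted p = 0.00179). The potassium channel gene Kcnh6 was 1.76-fold lower (adjusted p = 0.00247) and the cation channel gene Trpm2 2.46-fold lower (adjusted p = 5.91e-04). Among 17 neuronal differentiation genes Stmn3 was higher (2.26-fold, adjusted p = 0.0115), and Nefm, Chl1 and Nnat were lower by 2.01-, 3.45- and 4.12-fold.

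Genes of the immature islet went the other way. Of 34 listed genes 29 passed the filter, and 17 of these were lower and 1 higher at 12w, with a median log2 fold change of -0.76. The family of Igf2bp RNA-binding proteins, which are made mainly in the embryo and bind Igf2 and other growth-related mRNAs, was lower in all 3 members. Igf2bp3 (ENSMUSG00000029814, chromosome 6, 49035220 to 49164953) had 3.74, 4.12 and 3.03 CPM at 2w and no count in any 12w library. The sum over libraries was 176 counts at 2w against 0 at 12w, at least 42.3-fold lower when a floor of 3 counts over the group is used (adjusted p = 8.43e-04). Igf2bp1 had 2.20, 3.39 and 3.88 CPM at 2w and 0.238 to 0.267 CPM at 12w (12.1-fold lower, adjusted p = 0.00162), and Igf2bp2 had 33.0, 41.5 and 43.9 CPM against 12.2, 10.3 and 7.60 CPM (3.97-fold lower, adjusted p = 1.23e-04). Each gene of the family separated the ages in all 6 libraries. Igf2bp3 shares 1531 exonic bases with the gene 2410003K15Rik on the opposite strand, which was itself not lower (log2 0.40). The single gene called higher was Lin28a, an RNA-binding protein that blocks let-7 maturation, at 1.31 to 1.40 CPM against 2.27 to 3.49 CPM (2.30-fold, adjusted p = 0.0349); this call was lost in 11 alternatives, including the removal of any one 2w library.

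Of the peptides on this list 2 of 5 were lower, and of the surface proteins and receptors 4 of 8, with none higher. Ghrl, which encodes ghrelin, the product of a cell type frequent in fetal islets, had 18.3, 18.8 and 18.9 CPM at 2w and 6.68, 4.604 and 4.93 CPM at 12w, 3.49-fold lower (adjusted p = 0.00109). Gast, which encodes gastrin, was 2.87-fold lower at levels near 1 CPM (1.17 to 1.69 CPM against 0.378 to 0.600 CPM, adjusted p = 0.0274). Dlk1, an imprinted membrane protein of immature cells, had 30.0, 51.9 and 49.9 CPM at 2w and 21.9, 10.2 and 13.7 CPM at 12w (2.92-fold lower, adjusted p = 0.00234). Among transcription factors, Id3 was 1.98-fold lower (adjusted p = 4.51e-04) and Rest, the repressor of neuronal genes, was 1.96-fold lower (adjusted p = 0.0249).

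Glucagon, somatostatin and pancreatic polypeptide did not pass, whereas Ghrl (ghrelin, given above) and some transcription factors of the other endocrine cells did. Gcg (glucagon) was at 34031 to 45082 CPM at 2w and 23955 to 44145 CPM at 12w, with a log2 fold change of -0.32 ± 0.28 (adjusted p = 0.470). Sst (somatostatin) was at 1926 to 1997 CPM and 1861 to 4596 CPM (0.75 ± 0.27, adjusted p = 0.0780), and it passed without 12w library 4 (1.03, adjusted p = 0.00321). Ppy (pancreatic polypeptide) was at 2123 to 3894 CPM and 2330 to 4611 CPM (0.16 ± 0.31, adjusted p = 0.755). Ages overlapped for Gcg, Sst and Ppy. Of 15 tested genes on this list 6 were lower and none higher, and these included Irx1 (2.06-fold lower, adjusted p = 0.00326), Pou3f4 (4.95-fold lower, adjusted p = 0.0101) and Hhex, a δ-cell factor (1.68-fold lower, adjusted p = 0.0282). Pyy, a peptide of neonatal islet cells, was at 2140 to 2575 CPM and 988 to 2724 CPM and did not pass (adjusted p = 0.332).

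Disallowed genes are housekeeping genes that adult β-cells keep very low, such as those for high-affinity hexokinases and lactate handling. Of 29 such genes 7 were lower and none higher, with a median of -0.12. Hk2, a hexokinase that would phosphorylate glucose at low concentration, had 1.78, 1.92 and 1.49 CPM at 2w and 0.504, 0.0794 and 0.467 CPM at 12w (4.98-fold lower, adjusted p = 0.0120), and Hk1 was 1.38-fold lower (16.3 to 18.4 CPM against 11.9 to 12.9 CPM, adjusted p = 0.0439). The Hk1 call was lost in 12 alternatives, including the removal of any one Wt library (adjusted p = 0.0518 to 0.163). Oat, Smad3, Cxcl12 and Zfp36l1 were lower by 2.19-, 2.66-, 3.46- and 1.87-fold (adjusted p = 0.00315, 6.86e-04, 1.16e-04 and 0.00234), and the other was Rest, given above. The lactate genes at the core of the group did not pass: Ldha (lactate dehydrogenase A) was at 29.3 to 35.7 CPM and 31.6 to 56.7 CPM, and Slc16a1 (the monocarboxylate transporter MCT1) at 2.25 to 3.25 CPM and 1.33 to 1.89 CPM (adjusted p = 0.502 and 0.0741). Several of these genes are also made by endothelial and stellate cells, whose markers moved with age (given further on), and the part of those cells in the decrease was not tested.

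Genes of cell division were lower at 12w, and among these the genes of mitosis more than those of DNA replication. Of 58 listed genes, all tested, 27 were lower and 1 higher, with a median log2 fold change of -1.20. Among the 38 mitotic genes 25 were lower (median -1.56), and among the 20 replication genes 2 were lower (median -0.30). Mki67 (ENSMUSG00000031004, chromosome 7, 142881471 to 142908062), which encodes the proliferation antigen Ki-67, had 24.7, 45.8 and 35.8 CPM at 2w and 6.05, 8.41 and 11.5 CPM at 12w (4.01-fold lower, adjusted p = 0.00238). The mitotic kinase Cdk1 had 5.46, 8.69 and 6.60 CPM and then 2.02, 1.83 and 2.53 CPM (3.22-fold lower, adjusted p = 0.0134). Ages were apart for both genes, with 2w library 1 the lowest of its group. Top2a, the topoisomerase that disentangles chromosomes, was 3.55-fold lower (20.8, 41.0 and 32.5 CPM against 6.68, 7.30 and 12.1 CPM, adjusted p = 0.00756), and Cdc20, the activator of the anaphase-promoting complex, was 3.54-fold lower (adjusted p = 0.0131). Ccnb1 and Ccna2, the cyclins of mitosis and of S and G2 phase, were 8.19-fold and 3.10-fold lower (adjusted p = 0.00723 and 0.00444). Without 2w library 2, which holds the highest values of Mki67, Top2a, Cdk1 and Cdc20, 12 genes of the list were called lower in place of 27, and without 12w library 1 the count was 17. Without 2w library 2 Cdk1 and Cdc20 lost their calls.

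Replication genes moved little. Pcna, the sliding clamp of DNA polymerase, had 53.7, 50.01 and 49.4 CPM at 2w and 44.4, 47.3 and 54.5 CPM at 12w, so that the ages overlapped (log2 -0.06 ± 0.12, adjusted p = 0.752). Mcm2 and Mcm7, subunits of the replicative helicase, were the pair that passed, 1.59-fold and 1.44-fold lower (adjusted p = 0.0351 and 0.0193). Mcm2 lost its call in 8 alternatives, among them the removal of any one 2w library, and Mcm7 in 7. In a fit of the 6 Wt libraries alone neither passed (adjusted p = 0.0843 and 0.0818). Mcm7 shares exonic bases with Ap4m1 and Cops6 on the other strand. Foxm1, the activator of G2 and M phase genes, was at 5.64 to 8.10 CPM and 2.86 to 4.20 CPM without overlap (-1.03 ± 0.38) and did not pass (adjusted p = 0.0814). The one member called higher was Spc25, a kinetochore gene (158, 110 and 121 CPM against 204, 222 and 228 CPM, 1.68-fold, adjusted p = 0.00305). Spc25 (mm9 chromosome 2, 69031952 to 69044251, minus strand) lies beside G6pc2 (69049130 to 69065898, plus strand) in head-to-head order, and their annotated exons do not overlap; why Spc25 differed from the other mitotic genes was not tested.

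The promoters of mitotic genes often carry a cell cycle homology region (CHR, searched as TTTGAA), to which the complexes that repress these genes in resting cells are known to bind, together with CCAAT boxes, the site of the factor NF-Y. The 250 bases before the start site of 3 genes that fell are printed to show both motifs, 5′ to 3′ on the strand of the gene, from RefSeq on GRCm38.p6 and with CHR and CCAAT letters on either strand in capitals (each motif or its reverse complement). Cdk1 lies at chr10:69352913-69353162, Cdc20 at chr4:118437344-118437593 and Top2a at chr11:99024190-99024439, each on the minus strand.
Cdk1: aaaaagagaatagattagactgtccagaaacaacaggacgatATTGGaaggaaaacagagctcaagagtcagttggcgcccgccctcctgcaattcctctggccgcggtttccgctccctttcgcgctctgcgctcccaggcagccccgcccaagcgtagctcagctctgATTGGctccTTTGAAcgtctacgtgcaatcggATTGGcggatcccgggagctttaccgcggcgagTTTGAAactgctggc
Cdc20: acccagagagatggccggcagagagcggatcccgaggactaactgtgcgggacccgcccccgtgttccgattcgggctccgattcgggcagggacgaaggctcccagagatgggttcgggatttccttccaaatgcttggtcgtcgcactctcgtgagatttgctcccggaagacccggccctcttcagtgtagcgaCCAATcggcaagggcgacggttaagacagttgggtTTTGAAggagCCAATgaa
Top2a: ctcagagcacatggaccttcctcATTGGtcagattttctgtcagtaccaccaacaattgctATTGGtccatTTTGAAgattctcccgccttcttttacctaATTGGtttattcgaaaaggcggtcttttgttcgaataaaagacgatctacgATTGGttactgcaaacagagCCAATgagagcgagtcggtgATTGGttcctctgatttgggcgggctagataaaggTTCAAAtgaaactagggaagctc
Over the window from 250 bases before to 50 after the start, CHR letters stood in 17.9% of 32851 promoters and CCAAT letters in 37.4%. Of 38 mitotic genes 32 matched a promoter by symbol, and 23 of the 32 (71.9%) held CHR letters and 24 (75.0%) a CCAAT box. Of 16 matched replication genes 2 (12.5%) held CHR letters and 11 (68.8%) a CCAAT box. Within the mitotic genes the CHR letters did not go with the call, since they stood in 14 of 20 promoters of genes that were lower (70.0%) and in 8 of 11 of those not called (72.7%). A CCAAT box stood in 17 of 20 (85.0%) and in 6 of 11 (54.5%), and this difference was not tested.

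Regulators of the G1 phase were called at near the share of all genes. Of 29 tested cyclins, inhibitors and Polycomb genes, 3 were lower and 1 higher (median -0.10), while 15.8% of all genes were called in either direction. Cdk2, a kinase of the G1 to S transition, had 8.37, 9.13 and 10.4 CPM at 2w and 2.14, 3.49 and 2.80 CPM at 12w (3.27-fold lower, adjusted p = 4.27e-04), and the E2F family member E2f8 was 5.13-fold lower (adjusted p = 0.0114). Jarid2, a partner of Polycomb repressive complex 2, was 1.38-fold lower (adjusted p = 0.0233), while Ezh2, its histone methyltransferase, was at 10.6 to 13.3 CPM and 7.20 to 10.8 CPM (-0.48 ± 0.25, adjusted p = 0.197). Ccnd1 (cyclin D1) was at 172 to 200 CPM and 177 to 210 CPM (0.06 ± 0.12, adjusted p = 0.745). The gene called higher was Men1, named because it was the only one, which encodes menin, an activator of cell cycle inhibitors (1.32-fold, adjusted p = 0.0212).

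Imprinted genes, which are expressed from 1 parental copy and many of which act on fetal growth, were lower for 8 of 24 tested genes and higher for 2 (median -0.50). H19, a maternally expressed long noncoding RNA, had 3.68, 3.61 and 2.50 CPM at 2w and 0.126, 0.159 and 0 CPM at 12w, or 158 counts against 3 (38-fold lower by the ratio of counts, 95% counting interval 12.8 to 186, adjusted p = 3.04e-04). Peg10 had 49.1, 76.3 and 52.4 CPM and then 24.3, 12.6 and 12.1 CPM (3.68-fold lower, adjusted p = 3.33e-04), and Grb10, an adaptor that restrains insulin and IGF receptor signalling, had 201, 193 and 164 CPM and then 87.5, 73.1 and 104 CPM (2.11-fold lower, adjusted p = 1.90e-04). None of these genes overlapped between ages. Nnat, Zim1, Peg3 and Rian were lower by 4.12-, 3.05-, 1.56- and 1.44-fold (adjusted p = 0.00144, 0.00486, 0.0104 and 0.0381), and Snrpn and Impact were higher by 1.42- and 1.32-fold (adjusted p = 0.0204 and 0.0289). Without any one 2w library Impact did not pass (adjusted p = 0.0555 to 0.136). Igf2 itself, at 7.42 to 9.21 CPM and 5.27 to 8.32 CPM, did not pass (adjusted p = 0.343). Of 16 genes of the IGF and growth hormone axis, Irs1, the insulin receptor substrate, was 1.56-fold lower (adjusted p = 0.0174) and Igfbp7, a binding protein also made by vessels, was 2.00-fold lower (350 to 384 CPM against 179 to 189 CPM, adjusted p = 1.04e-04).

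Some receptors and targets of steroid and thyroid hormones were higher at 12w. Of 20 thyroid, glucocorticoid and oestrogen-related receptor genes and targets, 6 were higher and none lower (median 0.42). Dio1, the deiodinase that activates thyroid hormone, had 32.8, 28.2 and 27.0 CPM at 2w and 95.3, 64.8 and 100 CPM at 12w (2.96-fold, adjusted p = 8.34e-05). Nr3c2, the mineralocorticoid receptor, had 7.24, 5.08 and 5.37 CPM and then 14.4, 14.9 and 29.9 CPM (3.36-fold, adjusted p = 7.46e-04). For both genes every 12w library lay well above every 2w library. Ppargc1a, a coactivator of mitochondrial genes, rose 2.65-fold (adjusted p = 0.00672), and Klf9 and Rora rose 1.71- and 1.70-fold (adjusted p = 0.0104 and 0.00265); the last of the 6 was Esrrg, given above. Of 15 genes for prolactin and serotonin signalling 4 were higher and none lower. Prlr, the prolactin receptor, had 252, 187 and 216 CPM at 2w and 530, 327 and 473 CPM at 12w (2.03-fold, adjusted p = 0.00196), and Slc18a1, the vesicular monoamine transporter VMAT1, rose 3.95-fold (21.6 to 34.6 CPM against 66.7 to 140 CPM, adjusted p = 4.82e-04). Tph2, a serotonin-synthesising hydroxylase, was at 0 to 0.475 CPM and 1.47 to 1.67 CPM (adjusted p = 0.0204), and Maoa, which degrades serotonin, rose 1.70-fold (adjusted p = 0.0237), a call lost without any one library other than 12w library 1 (adjusted p = 0.0563 to 0.102). Tph1, the hydroxylase known from β-cells in pregnancy, was at or below 1.31 CPM in all 6 libraries and did not pass (adjusted p = 0.565).

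Genes for protein folding in the endoplasmic reticulum (ER) were higher at 12w. Of 32 genes of the unfolded protein response, 10 were higher and none lower (median 0.50), while 7.9% of all genes were called higher. Hspa5 (ENSMUSG00000026864, chromosome 2, 34627490 to 34632051), which encodes the main ER chaperone BiP, had 1912, 2441 and 2088 CPM at 2w and 3088, 5076 and 5581 CPM at 12w (2.13-fold, adjusted p = 0.00496). Dnajb9, an ER co-chaperone, had 215, 216 and 213 CPM and then 582, 427 and 775 CPM (2.77-fold, adjusted p = 9.67e-05). The 2w libraries lay close together and the 12w libraries all lay above them, spread more widely. Ero1b, the oxidase that forms disulfide bonds in proinsulin, rose 1.74-fold (867 to 1035 CPM against 1317 to 2189 CPM, adjusted p = 0.00772). Further increases were Manf (1.58-fold), Cnpy2 (1.51-fold), Dnajc3 (1.43-fold, adjusted p = 0.0405, but 0.0613 to 0.142 without any one 2w library or 12w library 4), and the degradation genes Sel1l (1.76-fold) and Edem1 (1.56-fold).

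Sensors and transcription factors of this response were among the increases. Xbp1, the factor spliced by IRE1, rose 1.62-fold (303 to 364 CPM against 505 to 563 CPM, adjusted p = 0.00138), and Atf6, a membrane-bound sensor, rose 2.05-fold (adjusted p = 0.0176). Atf6 was at 155, 160 and 370 CPM in 12w libraries 1, 2 and 4, and without 12w library 4 and 2w library 1 together its change was 0.45 on the log2 scale (adjusted p = 0.0514). Ddit3, the stress factor CHOP, was at 19.3 to 67.7 CPM and 48.8 to 99.1 CPM with overlap and did not pass (adjusted p = 0.145), and neither did the chaperone gene Hsp90b1 (1603 to 2277 CPM against 1945 to 3556 CPM, adjusted p = 0.113). Scaling by library size left 1 of the 10 increases, with a list median of 0.13. The insulin genes went up in the same libraries, and the part of insulin load in these increases was not tested.

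An ER stress response element (ERSE), to which ATF6 binds together with NF-Y, was searched as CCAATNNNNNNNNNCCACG on both strands, where each match also contains a CCAAT box. It stood in 39 of 32851 promoters (0.119%) and in 9 of 28 matched genes of the list (32.1%). It did not follow the call: 3 of 8 matched genes that were higher held it (37.5%), and so did 6 of 20 that were not called (30.0%). The 3 that rose and held it, Hspa5 at chr2:34771840-34772089, Dnajc3 at chr14:118937682-118937931 and Ero1b at chr13:12565633-12565882 (all plus strand, GRCm38.p6, RefSeq), are printed over the 250 bases before the start with the CCAAT and CCACG parts, or their complements, in capitals.
Hspa5: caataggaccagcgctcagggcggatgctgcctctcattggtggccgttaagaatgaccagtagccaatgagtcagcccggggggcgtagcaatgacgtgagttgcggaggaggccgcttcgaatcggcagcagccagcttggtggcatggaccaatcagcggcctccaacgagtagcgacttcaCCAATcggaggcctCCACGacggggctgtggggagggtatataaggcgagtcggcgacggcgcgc
Dnajc3: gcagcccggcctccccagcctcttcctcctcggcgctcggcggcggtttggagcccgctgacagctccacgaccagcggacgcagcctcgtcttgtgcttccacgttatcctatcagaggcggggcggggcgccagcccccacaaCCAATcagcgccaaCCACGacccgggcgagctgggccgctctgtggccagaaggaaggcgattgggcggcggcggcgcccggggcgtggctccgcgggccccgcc
Ero1b: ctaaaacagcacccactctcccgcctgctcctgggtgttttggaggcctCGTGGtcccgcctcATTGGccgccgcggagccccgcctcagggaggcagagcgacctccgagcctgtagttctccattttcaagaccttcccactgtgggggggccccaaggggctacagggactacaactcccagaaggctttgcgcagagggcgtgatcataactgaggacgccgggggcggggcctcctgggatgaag

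Sterol synthesis genes rose in part. Of 28 genes for cholesterol and fatty acid synthesis 7 were higher and none lower (median 0.40), 6 of them among the 17 cholesterol genes. Insig1, the sterol-regulated retention protein of the SREBP pathway, had 35.4, 35.6 and 38.5 CPM at 2w and 85.2, 87.6 and 160 CPM at 12w (3.05-fold, adjusted p = 1.36e-04). Fdft1, the squalene synthase, had 65.3, 60.4 and 67.2 CPM and then 137, 138 and 114 CPM (2.01-fold, adjusted p = 8.24e-05), and Fdps, the enzyme before it, rose 2.12-fold (adjusted p = 1.88e-04). The 3 genes were at nearly 1 level in the 2w libraries and above it in all 12w libraries. Cyp51 rose 1.66-fold, Sqle 1.51-fold and Elovl6, a fatty acid elongase, 1.82-fold (adjusted p = 0.0191, 0.00742 and 5.95e-04). Fdft1 shares 769 exonic bases with Ctsb on the opposite strand.

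Calls in energy metabolism are given beside the 7.9% of all genes called higher and the 7.91% called lower. Of 43 nuclear genes of the respiratory chain 4 were higher and none lower (median 0.28), namely Cox8a, Cox7a2, Ndufa2 and Ndufb5, by 1.56- to 1.64-fold. All 4 were highest in 12w library 1 and lowest of their group in 12w library 4, as in Cox8a with 138, 116 and 114 CPM at 2w and 277, 190 and 137 CPM at 12w (adjusted p = 0.0274), and none passed without 12w library 1. The median of this list turned to -0.12 under library size alone. Of 34 genes of glycolysis and the citric acid cycle, Eno2, Mdh1, Aldoa and Pgk1 rose 1.70-, 1.37-, 1.35- and 1.28-fold, and Pfkl, a phosphofructokinase, was 1.49-fold lower (adjusted p = 0.0415). Aldoa did not pass without any one library other than 12w library 4 (adjusted p = 0.0616 to 0.167), and neither did Pfkl. Mdh1 lost its call without any one 2w library, and Eno2 lost it without 2w library 2. Pdk4, a kinase that inhibits pyruvate dehydrogenase, had 49.9, 57.2 and 55.8 CPM at 2w and 20.04, 21.99 and 22.6 CPM at 12w (2.51-fold lower, adjusted p = 7.58e-05). Ucp2, a mitochondrial carrier, rose 1.56-fold (adjusted p = 0.0270), and Cpt1c, a brain-type carnitine acyltransferase, was 1.88-fold lower (adjusted p = 0.00417). The Ucp2 call was lost without 2w library 2 or 3 or 12w library 1. Among 11 genes of the ChREBP response, Bhlhe40 rose 2.06-fold (adjusted p = 6.14e-04), Mlx, the partner of ChREBP, 1.37-fold (adjusted p = 0.0496), and beside Mlxipl Arrdc3 was 1.58-fold lower (adjusted p = 0.00444). Of 51 cytosolic ribosomal protein genes 1 was called, Rps24 (1.54-fold, adjusted p = 0.0454). Pgk1, Mlx and Rps24 were named after their values were seen, as the calls of their lists.

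Metallothioneins, which bind zinc and other metals, were among the largest increases. Mt1 had 535, 58.6 and 129 CPM at 2w and 3343, 2153 and 714 CPM at 12w, and Mt2 had 433, 31.9 and 86.9 CPM and then 2343, 1871 and 603 CPM. For both genes the spread within an age was wide, with 2w library 1 the highest of its group and 12w library 4 the lowest, yet the ages did not overlap (8.59-fold, adjusted p = 0.00777, and 8.71-fold, adjusted p = 0.00947). Of 22 antioxidant and metallothionein genes 4 were higher, the others being Gpx1 (glutathione peroxidase, 1.79-fold, adjusted p = 0.00937) and Gstm1 (1.83-fold, adjusted p = 0.00992). Hmox1, a heme oxygenase, was 1.90-fold lower (adjusted p = 0.0317).

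**Figure D2:**
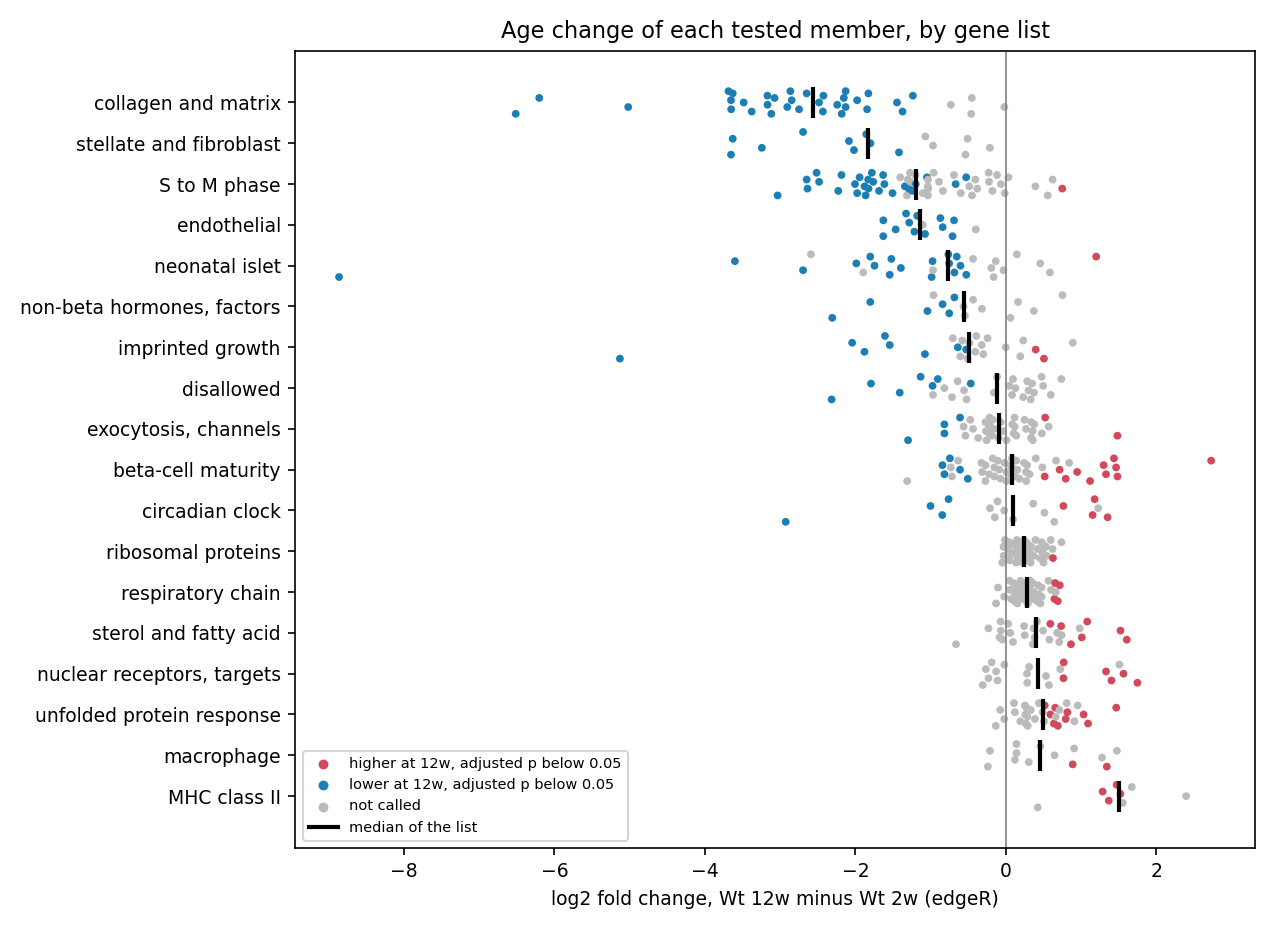
Log2 fold change (12w minus 2w) of every tested member of the lists drawn on the vertical axis, 1 point per gene, in red where called higher, blue where called lower and grey where not called, with a bar at each list's median. Among the lists drawn, the collagen and basement membrane genes lie farthest to the left (median -2.57, with 32 of 36 called lower). Stellate cell markers (-1.83) and genes of proliferation (-1.20) follow, while among the lists drawn MHC class II genes lie farthest to the right (1.499). Schwann and glial (-2.08), mast cell (-1.62, from Kit alone), mesothelial (-1.29) and acinar (1.62) markers are not drawn.

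Extracellular matrix genes showed the deepest decrease of all lists: 32 of 36 genes for collagens and basement membrane were lower at 12w and none higher, with a median log2 fold change of -2.57, against 7.91% of all genes called lower. Basement membrane collagen IV, which lies under the capillary endothelium of islets, was the most abundant of these. Col4a2 (ENSMUSG00000031503, chromosome 8, 11312805 to 11449287) had 516, 433 and 421 CPM at 2w and 58.6, 64.1 and 65.3 CPM at 12w (log2 -2.86 ± 0.13, 7.28-fold lower, adjusted p = 3.33e-08). Its neighbour Col4a1, transcribed from the opposite strand, had 826, 709 and 638 CPM and then 79.7, 96.5 and 126 CPM (7.19-fold lower, adjusted p = 2.63e-07). The gap between ages was many times the spread within each. Hspg2 (perlecan), Nid1 (nidogen) and Lamc1 (a laminin chain) were lower by 5.40-, 4.38- and 2.59-fold (adjusted p = 8.72e-07, 2.82e-07 and 4.05e-06). Sparc, a matrix-binding glycoprotein, had 460, 296 and 310 CPM at 2w and 91.5, 82.8 and 65.4 CPM at 12w (4.45-fold lower, adjusted p = 4.07e-06), and Thbs1 (thrombospondin) was 3.59-fold lower (adjusted p = 7.07e-05).

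Fibrillar and interstitial matrix fell further. Col3a1 had 122, 98.3 and 75.4 CPM at 2w and 5.42, 10.5 and 7.27 CPM at 12w (12.6-fold lower, adjusted p = 3.85e-07), Col1a1 49.2, 43.8 and 32.4 CPM and then 4.03, 3.89 and 2.40 CPM (12.4-fold lower, adjusted p = 7.29e-07), and Col6a2 40.0, 33.9 and 31.4 CPM and then 2.14, 2.86 and 3.0 CPM (12.9-fold lower, adjusted p = 4.88e-08). Col5a1 was 32.4-fold lower (22.9 to 28.5 CPM against 0.378 to 1.03 CPM) and Col5a3 10.4-fold lower (adjusted p = 2.58e-07 and 1.08e-06). Elastin (Eln) had 17.2, 21.4 and 18.9 CPM at 2w and 0, 0.635 and 0.0667 CPM at 12w (73.6-fold lower, adjusted p = 3.31e-06), the largest decrease among genes of at least 10 CPM at the higher age. Fbn2, the fibrillin of developing tissue, had 154 counts at 2w and 1 at 12w (ratio 111, 95% counting interval 19.7 to 4420, adjusted p = 1.75e-04). Postn (periostin) and Tnc (tenascin), matrix proteins of growing and healing tissue, were lower by 11.2- and 12.6-fold (adjusted p = 2.64e-05 and 2.66e-04). Over all alternatives run the list median stayed between -2.95 and -2.46, with 30 to 33 genes called lower.

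Markers of the cells that make this matrix were lower too. Of 14 markers of stellate cells and fibroblasts 9 were lower and none higher (median -1.83), and their summed level was 350 to 487 CPM at 2w and 96.0 to 161 CPM at 12w, 3.29-fold lower. Pdgfrb, the PDGF receptor of pericytes and stellate cells, had 81.4, 71.7 and 71.7 CPM and then 9.71, 9.92 and 14.7 CPM (6.48-fold lower, adjusted p = 2.63e-07), Cspg4, the pericyte proteoglycan NG2, was 9.47-fold lower (adjusted p = 1.18e-06) and Acta2, smooth muscle actin, 4.05-fold lower (adjusted p = 4.61e-04). The list of stellate markers includes Col1a1 and Col3a1 and is in that respect not separate from the matrix list. In bulk islets fewer cells of a type and less RNA per cell cannot be told apart, so these values do not say which of the 2 changed.

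Endothelial markers, by contrast in size, were lower by about 2-fold. Of 14 markers 12 were lower and none higher (median -1.14), and their sum went from 1201 to 1502 CPM at 2w to 517 to 641 CPM at 12w, 2.23-fold lower. Pecam1 (CD31) had 171, 134 and 126 CPM and then 47.4, 60.3 and 63.5 CPM (2.51-fold lower, adjusted p = 6.14e-05), and Cdh5, the endothelial cadherin, had 206, 145 and 154 CPM and then 44.1, 52.9 and 66.0 CPM (3.09-fold lower, adjusted p = 5.18e-05). No 12w library reached the lowest 2w library in either gene. Kdr, the VEGF receptor, was 2.32-fold lower (adjusted p = 6.77e-04), Eng, a TGFβ coreceptor, 2.76-fold lower (adjusted p = 1.81e-06), and Plvap, which marks fenestrated capillaries, 1.63-fold lower (adjusted p = 0.00238). Aplnr, the apelin receptor of growing vessels, had 29.1, 29.4 and 25.8 CPM at 2w and 0.504, 1.43 and 0.267 CPM at 12w (37.8-fold lower, adjusted p = 7.41e-07). The part that a smaller share of endothelial and stellate RNA had in the decrease of matrix genes was not tested.

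Markers of other cell types were as follows. Ductal markers summed to 1156 to 1229 CPM at 2w and 1007 to 1335 CPM at 12w, and acinar markers to 11.9 to 14.05 CPM and 19.8 to 27.3 CPM, of which Cpb1 (0 against 53 counts, at least 24.5-fold higher over the floor of 3 counts, adjusted p = 0.0351) was called higher, a call lost without 12w library 4 or any one 2w library. The ductal gene called was Sox9 (2.63-fold lower, adjusted p = 0.0385), and the lymphatic genes called were Prox1, which islet cells also make, and Flt4 (1.39- and 1.62-fold lower, adjusted p = 0.0339 and 0.0149); these 3 were named as the calls of their lists, after their values were seen. The mast cell marker Kit, which is also made by immature endocrine cells, was 3.07-fold lower (19.8 to 27.9 CPM against 4.66 to 9.76 CPM, adjusted p = 4.19e-04). The other 5 of 6 mast cell markers had no count in any Wt library. Msln, a mesothelial marker, was 2.49-fold lower (91.7 to 133 CPM against 34.4 to 56.1 CPM, adjusted p = 4.17e-04). Of 6 mesothelial markers 2 passed the filter, and Msln held 112 of their summed 120 CPM on average at 2w. Which cells made Msln was not tested. Of 8 tested Schwann and glial markers 2 were lower and 6 not called. The 2 were Sox10 and Ngfr, lower by 4.92- and 4.17-fold from levels under 6 CPM (adjusted p = 0.0388 and 0.0277). The Sox10 call was lost in 9 alternatives and the Ngfr call in 3. The summed Schwann and glial markers overlapped between ages (23.5 to 33.2 CPM at 2w and 11.9 to 28.2 CPM at 12w). Erythroid, adipocyte, hepatocyte and lymphocyte lists had no call, with 2 of 12 T and NK cell markers and 5 of 10 B cell markers past the filter.

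**Figure D3:**
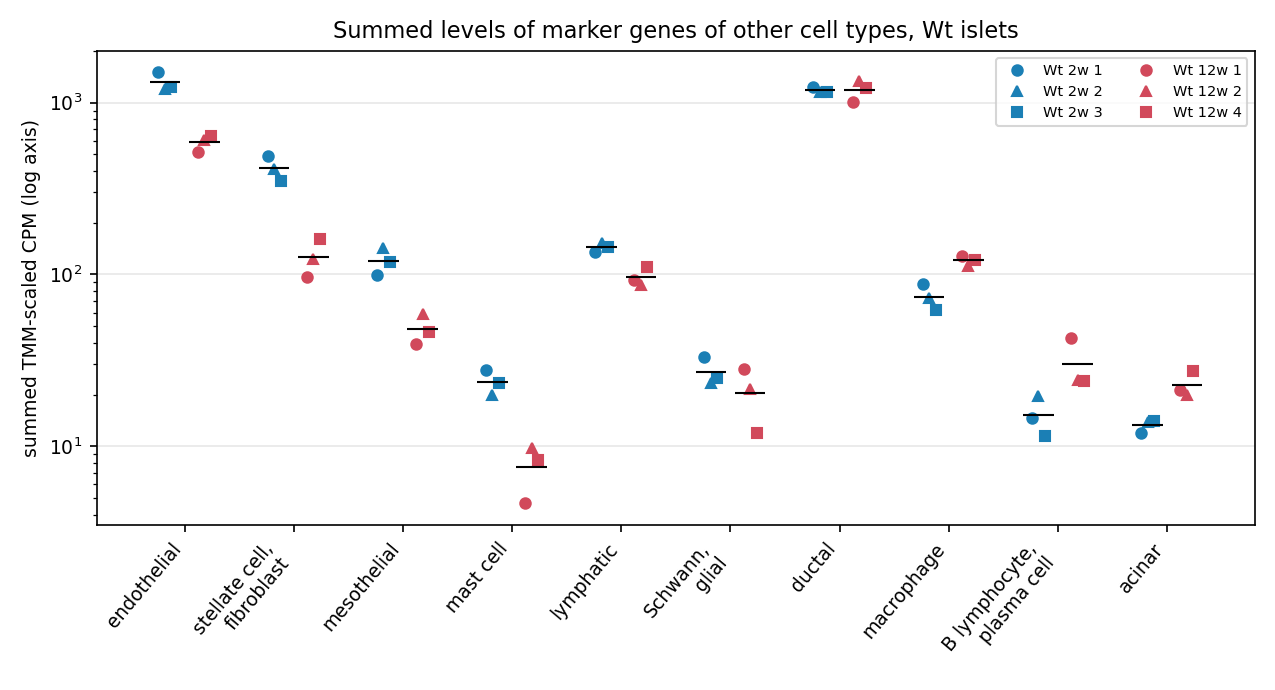
Summed CPM (log axis) of the marker genes of other cell types in each Wt library, with 1 point per library and a bar at the group mean. Endothelial and stellate sums lie lower in all 3 12w libraries (517 to 641 against 1201 to 1502 CPM, and 96.0 to 161 against 350 to 487 CPM), the macrophage sum lies higher (113 to 128 against 62.0 to 87.5 CPM), and the ductal sums overlap.

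Some macrophage markers and some MHC class II genes were higher at 12w. The summed macrophage markers were at 62.0 to 87.5 CPM at 2w and 113 to 128 CPM at 12w (1.63-fold), and 2 of 13 tested markers were called higher: Csf1r, the CSF1 receptor (8.84 to 9.90 CPM against 18.5 to 26.8 CPM, 2.54-fold, adjusted p = 1.75e-04), and the complement gene C1qa (1.85-fold, adjusted p = 0.0190). Cd68, at 6.49 to 8.13 CPM and 5.53 to 11.1 CPM, did not pass (adjusted p = 0.756). Of 8 tested MHC class II genes, which present peptides on macrophages, dendritic cells and B cells, 4 were higher and none lower (median 1.499). H2-Ab1 had 10.0, 8.99 and 8.83 CPM at 2w and 34.3, 17.7 and 28.5 CPM at 12w (2.88-fold, adjusted p = 0.00147), and Cd74, the invariant chain, had 38.5, 28.7 and 25.9 CPM and then 101, 48.4 and 78.3 CPM (2.44-fold, adjusted p = 0.0158). Libraries of the 2 ages did not overlap, and 12w library 2 was the lowest of its group for both genes. H2-Aa and H2-Eb1 rose 2.58- and 2.78-fold (adjusted p = 0.00750 and 0.00363), while Ciita, the activator of class II genes, was at or under 0.600 CPM and did not pass (adjusted p = 0.349). Beside these genes the 5 tested B cell markers summed to 11.4 to 19.5 CPM and 23.9 to 42.6 CPM, with none called, and the part of each immune cell type was not tested.

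Interferon-induced genes were higher for 4 of 15, and none of 10 tested MHC class I genes passed. Ifit1 had 6.82, 4.35 and 4.89 CPM at 2w and 47.1, 33.2 and 22.5 CPM at 12w (6.34-fold, adjusted p = 3.73e-05), and Oasl2 had 8.60, 7.66 and 11.01 CPM and then 33.5, 21.3 and 24.1 CPM (2.87-fold, adjusted p = 1.86e-04). All 12w libraries were above all 2w libraries by a wide margin. Ifit3 and Rsad2 rose 3.09- and 2.52-fold (adjusted p = 0.00177 and 0.00578).

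Circadian clock genes moved in both directions, 4 of 17 higher and 4 lower. Arntl (ENSMUSG00000055116, chromosome 7, 120350979 to 120457636), which encodes the clock activator BMAL1, had 20.4, 21.4 and 19.6 CPM at 2w and 2.02, 1.83 and 4.0 CPM at 12w (7.60-fold lower, adjusted p = 1.66e-05). Dbp, an output gene that BMAL1 activates, had 29.5, 27.1 and 27.3 CPM and then 64.7, 82.3 and 67.3 CPM (2.56-fold higher, adjusted p = 2.22e-05), and Nr1d1, the nuclear receptor REV-ERBα that represses Arntl, had 25.0, 26.3 and 30.0 CPM and then 67.3, 59.8 and 57.4 CPM (2.27-fold higher, adjusted p = 5.20e-05). Libraries of 1 age lay close together and the ages were far apart for these genes. Genes that oscillate together with Arntl were also lower: Nfil3, a repressor, by 1.69-fold (30.1 to 39.1 CPM against 16.01 to 24.8 CPM, adjusted p = 0.00958) and Cry1 by 1.80-fold (adjusted p = 0.0153). With Dbp and Nr1d1, Nr1d2 rose 2.22-fold (adjusted p = 0.00468) and Tef 1.70-fold (adjusted p = 0.00214). Per2 was at 48.1 to 55.8 CPM and 31.5 to 63.5 CPM and did not pass (adjusted p = 0.683). No source used here gives the hour of islet collection, so age and collection time cannot be told apart for these genes. Nr1d1 overlaps Thra and Dbp overlaps Sphk2 on the opposite strand, and both partners had estimates below 0.

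Arntl and Nfil3 were lower while Nr1d1 and Nr1d2 were higher, and Rora, the gene of a ROR receptor, was higher too (given above). The part of ROR and REV-ERB receptors in these decreases was not tested. The element through which these receptors are known to act on Arntl and Nfil3 is shown from RefSeq (GRCm38.p6), a choice made after the values were seen. Its core was searched as GTAGGTCA on both strands and stood in 204 of 32851 promoters (0.621%) and in 2 of 15 matched clock genes (13.3%), which were Arntl and Nfil3. For Nfil3 the 250 bases before the start are printed (chr13:52981040-52981289, minus strand), and for Arntl a site of 24 bases that begins after the start (chr7:113207532-113207555, plus strand), with the core or its complement in capitals.
Nfil3: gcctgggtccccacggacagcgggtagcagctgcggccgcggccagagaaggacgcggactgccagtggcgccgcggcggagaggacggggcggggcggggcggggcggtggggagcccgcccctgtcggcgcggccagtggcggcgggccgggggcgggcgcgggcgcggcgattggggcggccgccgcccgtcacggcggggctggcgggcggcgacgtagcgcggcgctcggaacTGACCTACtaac
Arntl: ggcagaaaGTAGGTCAgggacgga
The E-box CACGTG, the site of BMAL1 and CLOCK, stood in 5 of the 15 clock promoters (33.3%) and in 7.15% of all promoters.

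**Figure D4:**
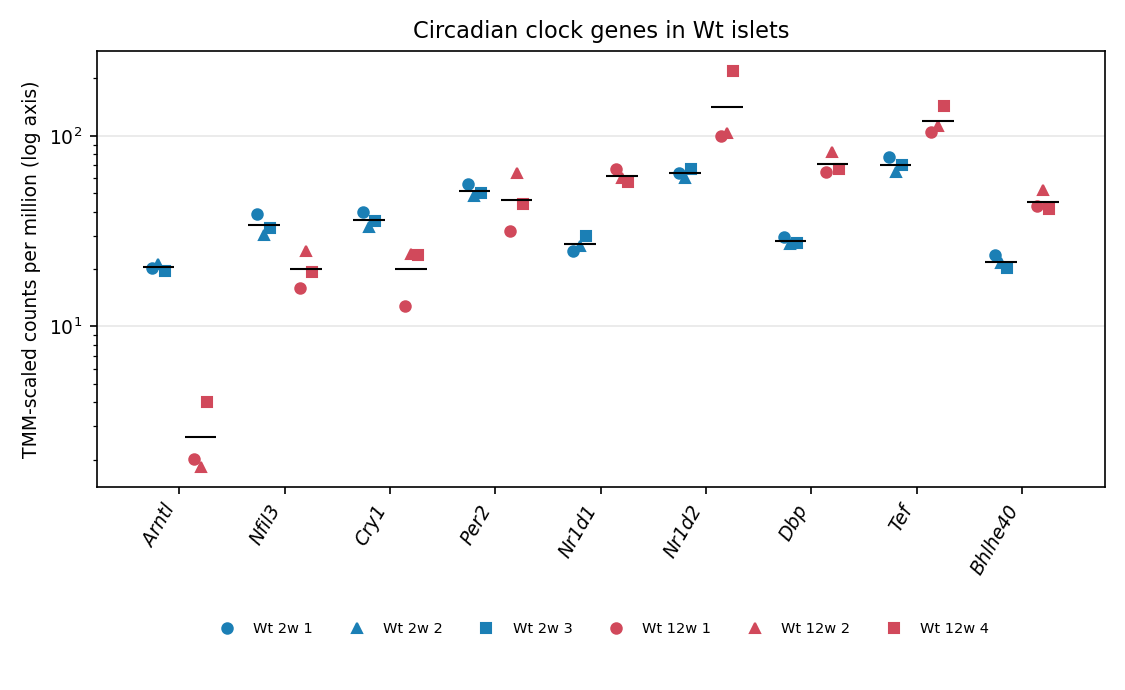
CPM (log axis) of circadian clock genes in each Wt library at 2w and 12w, with 1 point per library and a bar at the group mean. Arntl drops from 19.6 to 21.4 CPM to between 1.83 and 4.0 CPM, while Dbp and Nr1d1 rise with no overlap between ages and Per2 overlaps.

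Immediate early genes, whose mRNA reacts within minutes to stimulation or handling, were also split. Of 21 such genes 3 were higher and 5 lower (median -0.26). Egr1 had 47.7, 113 and 46.6 CPM at 2w and 17.8, 19.7 and 20.001 CPM at 12w (3.58-fold lower, adjusted p = 0.00300), and Egr2 had 4.98, 4.20 and 4.68 CPM and then 0.126, 0.714 and 0.800 CPM (7.72-fold lower, adjusted p = 2.51e-04). Egr3, Ier2 and Klf6 were lower by 3.73-, 1.91- and 1.55-fold (adjusted p = 0.0351, 0.00264 and 0.0183). In contrast, Fosb and Jund, of the AP-1 family, rose 2.88- and 2.15-fold (adjusted p = 0.00207 and 0.00206). Npas4, which responds to calcium entry, had 38.03, 27.5 and 43.0 CPM at 2w and 100, 223 and 37.5 CPM at 12w (3.32-fold, adjusted p = 0.0299), and the ages overlapped; without 12w library 2 its change was 0.91 on the log2 scale (adjusted p = 0.167). Age and collection time cannot be told apart for immediate early genes either.

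Beyond the lists, the largest increases among genes of at least 10 CPM at 12w were Pdyn, Rsph4a, Nupr1 and Rasd2. Pdyn (ENSMUSG00000027400, chromosome 2, 129512301 to 129525580), the precursor of dynorphin opioid peptides, had 8.25, 2.14 and 3.67 CPM at 2w and 125, 145 and 153 CPM at 12w (29.8-fold, adjusted p = 1.51e-06). Rsph4a, a radial spoke protein of motile cilia, had 2.43, 1.18 and 1.97 CPM and then 28.6, 27.3 and 28.1 CPM (14.8-fold, adjusted p = 6.36e-06). Rasd2, a small GTP-binding protein, had 10.0, 2.50 and 4.84 CPM and then 65.2, 63.8 and 61.3 CPM (10.8-fold, adjusted p = 4.44e-05). In these genes the 12w libraries were nearly equal, and 2w library 1 was the highest of its group. Nupr1, a stress-induced chromatin protein, rose 11.02-fold (1.18 to 7.36 CPM against 22.1 to 46.2 CPM, adjusted p = 6.18e-04), and Ica1l rose 7.15-fold (3.51 to 5.58 CPM against 23.8 to 36.0 CPM, adjusted p = 5.99e-06). Among the decreases outside the matrix was Gm14085, at 10.4 to 34.7 CPM and 0.794 to 1.26 CPM (19.4-fold lower, adjusted p = 6.26e-04).

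Lars2, the mitochondrial leucyl-tRNA synthetase gene, and 3 other transcripts were far higher in 1 library than in the rest. Lars2 had 3419, 3830 and 2921 CPM at 2w and 44426, 6886 and 6080 CPM at 12w, and mmu-mir-689-2 had 1755, 1941 and 1555 CPM and then 33820, 3120 and 2972 CPM. In 12w library 1 both stood far above the other 5 libraries, and so did Gm15564 (44.5 CPM, at most 5.33 elsewhere) and AC027184.1 (36.9 CPM, at most 5.87 elsewhere). Fold changes over all libraries were 5.64 for Lars2 and 7.60 for mmu-mir-689-2 (adjusted p = 0.0121 and 0.0156), and without 12w library 1 the log2 changes were 0.94 (adjusted p = 0.0305) and 0.81 (adjusted p = 0.0816). Without it Gm15564 and AC027184.1 changed by 1.18 and 1.24 and did not pass (adjusted p = 0.0907 and 0.161).

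The age change of Wt islets was set beside that of Tg7 islets, which come from mice with excess miR-7a2 in β-cells and were sampled at the same ages. Between 2w and 12w 2079 genes changed in Tg7 islets (13% of those tested), of which 1120 were higher and 959 lower. Of the 2524 Wt calls 996 were called in the same direction in Tg7, 21 in the opposite direction and 1507 not at all, counts that do not by themselves show a difference. The test of the difference itself called 188 genes (1.18%), with a Wt change above the Tg7 change in 49 (0.307%) and below it in 139 (0.871%). In the matrix list the difference was negative in 15 of 36 genes and positive in none, and over all alternatives 10 to 21 were negative. Both genotypes lowered matrix genes with age, but by a median of -2.57 in Wt and -1.26 in Tg7, where 29 genes were called lower. Col1a1, for example, had group means of 41.8 CPM at 2w and 3.44 CPM at 12w in Wt, and 92.7 ± 12.5 CPM and 53.8 ± 10.6 CPM (SD, n = 3) in Tg7, so that the Wt log2 change of -3.63 exceeded the Tg7 change of -0.78 by -2.85 ± 0.31 (adjusted p = 5.13e-04). Tg7 levels lay above Wt levels at both ages. Col3a1, Col5a1 and Col6a2 differed by -2.63, -3.28 and -2.55 (adjusted p = 5.51e-04, 5.30e-04 and 7.40e-05). For stellate markers the median was -1.83 in Wt and -0.62 in Tg7, with 4 of 14 differences called (Pdgfrb, Cspg4, Col1a1 and Col3a1), and for endothelial markers it was -1.14 and -0.40, with 2 of 14 called (Pecam1 and Eng).

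**Figure D5:**
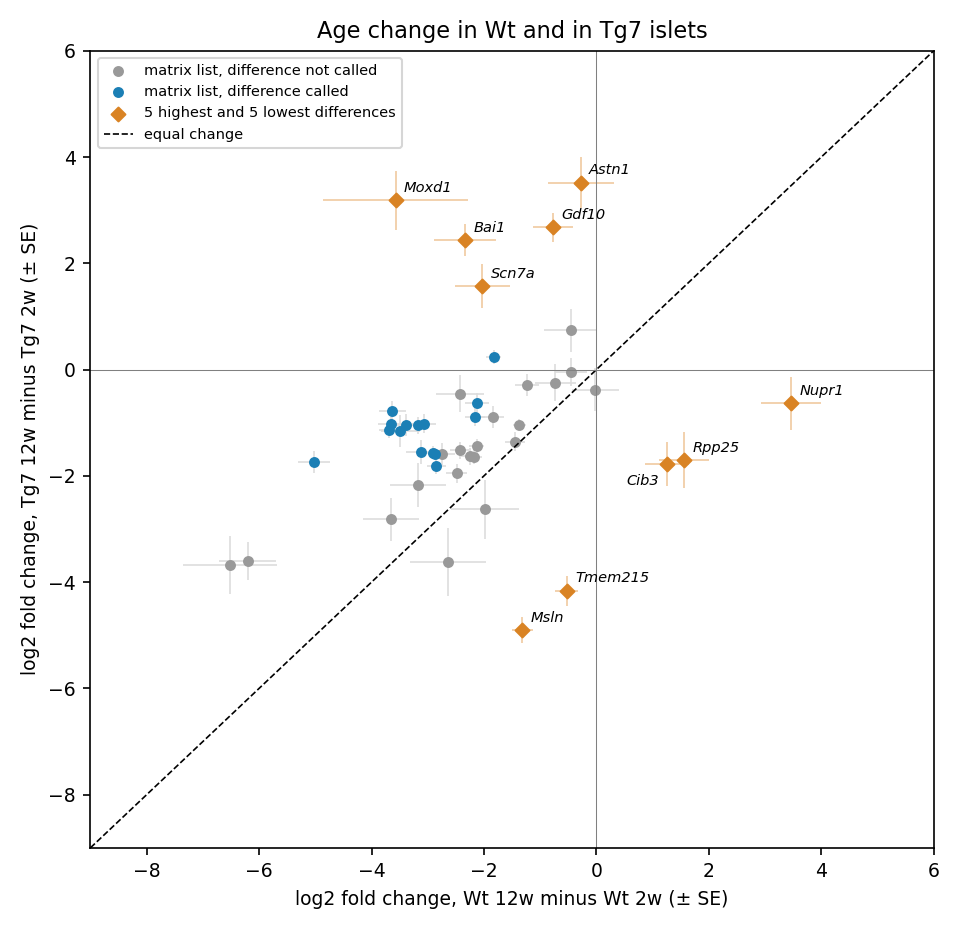
Log2 fold change with age in Tg7 islets (vertical axis) against that in Wt islets (horizontal axis), ± SE, for the collagen and basement membrane genes (blue where the difference was called, grey where not) and for the 5 highest and 5 lowest differences (orange diamonds); the dashed line marks equal change. Matrix genes lie left of and above the line, with Col1a1 at -3.63 in Wt and -0.78 in Tg7, while Msln lies below it at -1.32 and -4.90.

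On the immature and neonatal list 5 of 29 differences were called, all negative: those of Gast, Dlk1, Pdgfrb, Cd81 and Vtn. Cd81, a tetraspanin of immature β-cells, changed by -0.76 in Wt and 0.25 in Tg7 on the log2 scale (difference -1.02 ± 0.22, adjusted p = 0.0436), a call lost in 11 alternatives, and Vtn, which encodes vitronectin, by -0.13 and 1.69 (difference -1.82 ± 0.34, adjusted p = 0.0183). Cd81 and Vtn were named for these calls. Of 51 maturity genes the difference was positive in 1 and negative in 2. Proliferation genes were lower in Tg7 as well (37 of 58, median -1.62) and differed in 1 gene, Spc25, which was 1.68-fold higher with age in Wt and changed by -0.44 on the log2 scale in Tg7 (difference 1.19 ± 0.20, adjusted p = 0.0113). Among 32 genes of the unfolded protein response 20 were higher in Tg7, and 1 difference was called, that of Creld2, a chaperone gene named for this call, with -0.07 in Wt and 1.501 in Tg7 (difference -1.57 ± 0.23, adjusted p = 0.00363). None of the clock, sterol or MHC class II genes differed by this test, which does not show that their changes were equal. Ins1 had a Wt change of 1.30 and a Tg7 change of -0.76, with a difference of 2.06 ± 0.53 that did not pass (adjusted p = 0.0824). Among genes with a mean of at least 10 CPM in 1 of the 4 groups, the difference was largest upward for Nupr1 (3.46 in Wt and -0.63 in Tg7) and for Tmem215, a membrane protein gene (-0.53 and -4.16), which had 145 CPM at 2w and 100.2 CPM at 12w on average in Wt but 16.5 and 0.92 CPM in Tg7. It was largest downward for Moxd1, Bai1, Astn1, Scn7a and Gdf10, which in Wt islets were at or below 5.10 CPM in every library and in Tg7 islets had 12w means of 13.2, 13.98, 15.8, 11.7 and 26.5 CPM. Moxd1 and Bai1 did not pass the filter in the 6 Wt libraries alone and were tested because of their Tg7 counts, so their place in this order is a description. Dlk1 fell with age in Wt (-1.54) and had an estimate of 0.93 in Tg7, a difference of -2.47 ± 0.38 (adjusted p = 0.00651). Pdyn rose in both, from 4.68 to 141 CPM in Wt and from 1.04 to 308 CPM in Tg7 (difference -3.35 ± 0.54, adjusted p = 0.00791).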

How the data were processed

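Total RNA of islet pools (at least 3 animals each) was sequenced as paired ends. The authors deposited raw read counts per gene (featureCounts); the submitters' processing notes name bcl2fastq 2.20.0, Trimmomatic, TopHat2 2.0.11 and mm9. No source used here states the strand setting or the treatment of multi-mapping reads. Exons shared with a gene on the other strand, and near-identical copies such as Ins1 and Ins2, are therefore uncertain. Symbols and positions came from GENCODE vM1 (37205 of 37991 rows; rows without a match held 0.0498% to 0.0962% of counts).

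Counts were fitted in edgeR 4.0.16 (R 4.3.3, limma 3.58.1) with TMM scaling, a filter at 10 counts (15 in total), 4 group means over all 12 libraries and the quasi-likelihood test; p values were adjusted by Benjamini-Hochberg over all 15961 genes (threshold 0.05). Folds and ± SE are from this fit. The filter was set over all 12 libraries, and 1143 tested genes did not pass it in the 6 Wt libraries alone. Ratios with 0 to 3 counts in a group use the summed counts with an exact 95% interval, or a floor of 3 counts over the group; these cover counting error only. The scripts were tested on simulated data. Alternatives were DESeq2 1.42.0, other scalings, filters, the Wt libraries alone, a 1.2-fold null, a replicate block and leaving out libraries.

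Named genes were the key genes of the lists, the 10 highest and 10 lowest log2 fold changes (called, non-overlapping, mean of at least 10 CPM in the higher group), the 5 most abundant called in each direction with at least 2-fold, and the 5 highest and 5 lowest called differences from Tg7. Some genes of the lists are counted but not reported here by name. Members and lists were chosen with earlier results of these data known. Library numbers are shared between ages without a stated pairing, and deviations of equal numbers correlated at -0.0362 and -0.114, so they were not treated as pairs.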

Additional observations from a re-analysis of the deposited data

Results flagged for a closer look

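The age change differed between Wt and Tg7 islets in 188 genes by the interaction term of the edgeR fit (adjusted p under 0.05), and the named genes among them follow, as the Wt log2 change minus the Tg7 log2 change. Differences were negative in matrix genes, with -3.28 for Col5a1, -2.85 for Col1a1, -2.63 for Col3a1, -2.55 for Col6a2, -2.33 for Col5a3 and for Postn, -1.49 for Col1a2, -1.28 for Col4a2, -1.27 for Sparc and -1.03 for Col4a1. Vessel and pericyte genes had -2.25 (Aplnr), -1.60 (Pdgfrb), -1.40 (Cspg4), -0.91 (Pecam1) and -0.83 (Eng). Among peptides and genes of immature cells the values were -3.35 for Pdyn, -3.07 for Gast and -2.47 for Dlk1, beside -1.82 for Vtn and -1.02 for Cd81, and the chaperone gene Creld2 had -1.57. The lowest values were -6.76 (Moxd1), -4.76 (Bai1), -3.80 (Astn1), -3.60 (Scn7a) and -3.44 (Gdf10). Moxd1 and Bai1 did not pass the filter in the Wt libraries alone, and the Moxd1 value rests on 21 Wt counts at 2w and 1 at 12w (ratio 15.2, 95% counting interval 2.44 to 627). Positive differences were 4.10 for Nupr1, 3.63 for Tmem215, 3.58 for Msln, 3.26 for Rpp25, 3.03 for Cib3, 2.56 for Rsph4a, 2.14 for Ica1l and 1.19 for Spc25. Groups of 3 libraries are too small for a test of single outlying values.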

How the results depend on the processing

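Counts of calls moved with the number of libraries and the scaling. The 2524 genes (1261 higher, 1263 lower) became 1283 (493 and 790) on the Wt libraries alone, 4120 (325 and 3795) under library size alone and 1472 (652 and 820) against a 1.2-fold null. Leaving out 1 library gave 1336 to 4020 (562 to 1873 higher, 774 to 2147 lower), and leaving out 2w library 1 and 12w library 4 together, chosen after seeing the data, gave 1938 lower. With a replicate block, which pairs libraries by number only, 3817 genes were called (1942 lower). The 188 differences from Tg7 (49 positive, 139 negative) became 607 (222, 385) in DESeq2, 347 (24, 323) under library size, 420 (181, 239) with no filter, 502 (160, 342) with the replicate block, 120 (30, 90) against 1.2-fold, 535 (185, 350) without both libraries, and 82 to 579 (17 to 167, 65 to 412) without 1 library.

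Calls summed over the lists (195) fell to 127 without 2w library 2 and reached 271. Maturity increases (11) were 5 on the Wt libraries alone, 7 under library size and 7 to 13 without 1 library. Neonatal decreases (17) were 9 on the Wt libraries, 10 against 1.2-fold and 10 to 15 without 1 library, and proliferation decreases (27) were 12 to 32 without 1 library, 34 without both libraries and 40 under library size. Under library size 15 imprinted genes were lower and 1 unfolded protein response gene higher (6 on the Wt libraries), and DESeq2 called 11 sterol and fatty acid genes higher. Summed markers under library size changed by 0.39 (acinar), -0.38 (ductal), -1.54 (endothelial), 0.31 (macrophage), -1.71 (mesothelial) and -0.97 (lymphatic) on the log2 scale. Signs turned under library size for Nkx6-1 (-0.13), Ppy (-0.26), Ldha (-0.14), Ccnd1 (-0.33) and Cd68 (-0.28), none of them called. Leaving out 1 library, or 2w library 1 and 12w library 4 together, gave -0.10 to 0.58 for Ppy, -0.016 to 0.46 for Ldha, -0.16 to 0.0082 for Pcna, -0.052 to 0.14 for Ccnd1, -0.10 to 0.43 for Cd68 and -0.44 to 0.071 for Per2. The causes were not tested. Calls were lost in 12 alternatives for Hk1, in 11 each for Aldoa, Lin28a and the Col4a1 and Cd81 differences, and in 10 each for Dnajc3, Impact, Maoa and Stx1a. Other named genes lost theirs in fewer, among them Sox10 in 9, Mcm2, Snrpn and Tmem27 in 8 each, Mcm7 and Hhex in 7 each, and Rest and Jarid2 in 6 each. Decreases of matrix, endothelial and stellate lists and MHC class II increases kept within 1.5 times in every alternative run. Of the values of named genes under alternatives, 3627 kept their direction and side of the threshold, 412 lost a call, 42 gained one and 12 changed sign; 4 values to which DESeq2 gave no adjusted p are left out.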
